A study of Mus musculus with 3 samples.

Results

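The cytosolic ribosomal protein genes of the mouse were examined for HDAC3 and KLF4 occupancy in the skin epithelium of late embryos. Members were the protein-coding genes of GRCm38 whose symbol begins with Rpl or Rps and a number, together with Rplp0, Rplp1, Rplp2 and Rpsa. Pseudogenes and the Rps6k kinases were left out. The rule found 89 genes of 21887 protein-coding genes. Of these, 77 encode the standard proteins of the ribosome, 46 in the large subunit and 31 in the small subunit. The other 12 are copies or relatives: Rpl3l, Rpl7l1, Rpl10l, Rpl22l1, Rpl32l, Rpl36al, Rpl37rt, Rpl39l, Rps23rg1, Rps27l, Rps27rt and Rps19bp1. Rps19bp1 is in the set by its symbol, and its product binds the RPS19 protein without being a ribosomal subunit. The rule uses names and positions, not measured values.

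Chromatin immunoprecipitation followed by sequencing had been done on fixed epidermis from the back of E18.5 embryos, wild-type mice shortly before birth. There were 3 libraries: an HDAC3 precipitation with the antibody Abcam ab7030, a KLF4 precipitation with R&D AF3158, and an input of chromatin with no antibody. The labels give no strain, sex or number of embryos, and no animal lacking either factor was analysed here. Each antibody had a single library and no replicate, so no difference below was tested. The main counts of members are given beside the same count over all protein-coding genes. The HDAC3 library held 56787485 tags, 3.95% of them in its 57936 peaks, and the KLF4 library 61432711 tags, 6.81% of them in its 47155 peaks. At the genes that define cell types, KLF4 peaks lay at the ends of 3 of 8 keratinocyte genes (Sfn 217, Krt10 202, Krt1 96 in peak score) and an HDAC3 peak at 1 of 8 (Dsp, 51). Melanocyte genes had KLF4 at 2 of 5 (Pmel 84, Dct 69) and HDAC3 at 1 of 5 (Pmel, 34). Fibroblast genes had KLF4 at 1 of 5 (Col1a1, 236) and HDAC3 at 2 of 5 (Pdgfra 19, Dcn 18). None of 5 immune, 4 endothelial and 2 Merkel cell genes had a gene-end peak of either factor. Over all protein-coding genes KLF4 was at 23.1% and HDAC3 at 18.9%, and these lists are too short to read a difference from that. A peak is no measure of transcript level, and the cell types present in the sample were not tested.

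Ribosomal proteins are the protein part of the machine that translates every cytosolic messenger RNA. Their genes are among the most transcribed in growing cells, and most of their products are needed in equal numbers. The promoters are therefore usually described as a co-regulated set with short, CpG-rich sequence and a run of pyrimidines at the start of transcription. The same run, at the front of the messenger RNA, places translation of these transcripts under the mTOR kinase. HDAC3 is a histone deacetylase that acts inside corepressor complexes. KLF4 is a zinc finger transcription factor that binds GC-rich DNA and is required for the skin barrier. Mutations in several ribosomal protein genes darken the skin or alter the skeleton of mice, which makes the family of interest in this tissue.

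Promoter sequence is shown for the members at which an HDAC3 and a KLF4 peak overlapped each other close to the start, and for members without that pair as a contrast. The stretches run from 150 bases before to 20 bases after the RefSeq start (GRCm38.p6), 5′ to 3′ on the strand of the gene. Capitals mark every match to CCGGAAG, the core of sites bound by ETS family factors, or to GGGNGTGG, the core bound by KLF factors, on either strand. In 7 genes with an overlapping pair of gene-end peaks, both centres lay within 150 bp of the start. These are Rpl24 (chr16:55966125-55966294, plus strand), Rpl26 (chr11:68901416-68901585, plus), Rpl37 (chr15:5116463-5116632, plus), Rpl38 (chr11:114668430-114668599, plus), Rpl41 (chr10:128549149-128549318, minus), Rpl6 (chr5:121204351-121204520, plus) and Rps6 (chr4:86857348-86857517, minus). Rpl27 (chr11:101442095-101442264, plus) and Rps7 (chr12:28635934-28636103, minus) had KLF4 alone near the start. Rpl36a (chrX:134585504-134585673, plus) and Rpl35a (chr16:33056303-33056472, plus) had no gene-end peak of either factor.
Rpl24: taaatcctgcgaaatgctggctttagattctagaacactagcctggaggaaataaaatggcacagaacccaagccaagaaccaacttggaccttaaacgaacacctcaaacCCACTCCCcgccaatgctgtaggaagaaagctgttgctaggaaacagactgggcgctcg
Rpl26: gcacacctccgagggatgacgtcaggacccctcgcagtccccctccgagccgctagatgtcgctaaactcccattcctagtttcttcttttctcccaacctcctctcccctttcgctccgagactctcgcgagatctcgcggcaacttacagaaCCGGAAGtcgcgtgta
Rpl37: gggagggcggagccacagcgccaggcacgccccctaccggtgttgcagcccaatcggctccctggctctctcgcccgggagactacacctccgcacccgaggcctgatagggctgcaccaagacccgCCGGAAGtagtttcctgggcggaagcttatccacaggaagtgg
Rpl38: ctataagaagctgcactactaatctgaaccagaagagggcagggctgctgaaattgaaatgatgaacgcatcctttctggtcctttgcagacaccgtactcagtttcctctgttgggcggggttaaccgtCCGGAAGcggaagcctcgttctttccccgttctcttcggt
Rpl41: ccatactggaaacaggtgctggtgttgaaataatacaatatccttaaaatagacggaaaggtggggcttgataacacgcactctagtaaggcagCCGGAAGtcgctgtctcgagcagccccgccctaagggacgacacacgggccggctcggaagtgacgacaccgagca
Rpl6: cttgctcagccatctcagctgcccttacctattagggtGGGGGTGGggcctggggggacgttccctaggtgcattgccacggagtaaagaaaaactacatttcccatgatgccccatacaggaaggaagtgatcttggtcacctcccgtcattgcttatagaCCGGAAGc
Rps6: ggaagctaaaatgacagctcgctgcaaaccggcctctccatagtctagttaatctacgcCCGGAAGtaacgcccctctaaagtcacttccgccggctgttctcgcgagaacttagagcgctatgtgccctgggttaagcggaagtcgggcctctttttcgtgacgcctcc
Rpl27: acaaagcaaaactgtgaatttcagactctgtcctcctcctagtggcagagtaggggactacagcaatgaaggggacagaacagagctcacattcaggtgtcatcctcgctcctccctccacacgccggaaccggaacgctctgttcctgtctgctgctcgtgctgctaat
Rps7: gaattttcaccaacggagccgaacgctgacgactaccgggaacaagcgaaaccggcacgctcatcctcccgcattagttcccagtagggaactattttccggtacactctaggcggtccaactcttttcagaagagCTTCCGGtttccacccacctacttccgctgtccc
Rpl36a: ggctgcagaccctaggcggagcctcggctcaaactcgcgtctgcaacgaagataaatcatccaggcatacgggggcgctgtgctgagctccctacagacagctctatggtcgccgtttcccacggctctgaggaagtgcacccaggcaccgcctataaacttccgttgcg
Rpl35a: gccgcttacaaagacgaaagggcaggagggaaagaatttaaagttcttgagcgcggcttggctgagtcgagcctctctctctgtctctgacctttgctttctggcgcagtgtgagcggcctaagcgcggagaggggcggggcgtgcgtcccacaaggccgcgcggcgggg
Of the 7 stretches from genes with such a pair, 6 held the ETS letters and 2 the KLF letters, and Rpl6 held both. Over the same 170 bases, the ETS letters were in 9.18% of all 17492 promoters and in 30.4% of the 69 member promoters in the table, and the KLF letters in 13.8% and 10.1%. The stretches are not wholly covered by the peaks, and parts of the peaks lie outside the stretches. The KLF4 peak of Rpl41 shares no base with its stretch, and that of Rpl24 meets only the last bases of its stretch. The counts of letters therefore do not describe all the sequence under the pairs. Of the 6 ETS matches in the pair stretches, 4 lay inside both peaks, that of Rpl26 inside its KLF4 peak alone, and that of Rpl41 inside neither. The KLF match of Rpl24 lay inside the HDAC3 peak alone, and that of Rpl6 outside both peaks. Rps7, shown without the pair, also held an ETS match. Rpl27, with a KLF4 peak of score 244 centred 12 bp inside the gene, held neither in its stretch. Its longer promoter of 300 bases, described below, did hold a KLF match outside the stretch.

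A gene was called occupied when 1 or more peak centres fell within 1 kb of either of its annotated ends. KLF4 peaks were at the ends of 47 of the 89 ribosomal protein genes (52.8%), against 23.1% of all protein-coding genes. HDAC3 peaks were at 29 (32.6%), against 18.9% of all. Both factors were at 23 members (25.8%), against 10.3% of all. At 17 members (19.1%) an HDAC3 and a KLF4 peak overlapped by at least 1 bp, against 8.25% of all. KLF4 without HDAC3 was found at 24 members (27%, against 12.8% of all). HDAC3 without KLF4 was at 6 (6.74%, against 8.65%), and neither factor at 36 (40.4%, against 68.3%). Of the members with HDAC3, 79.3% also had KLF4, against 54.3% of all genes with HDAC3. Of those with KLF4, 48.9% also had HDAC3, against 44.5% of all genes with KLF4.

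Ribosomal protein genes are short, and a window at both ends covers more of a short gene. Their median span was 3183 bp, against 17169 bp for all protein-coding genes. Among all genes spanning 1 to 10 kb, as 84 of the 89 members did, HDAC3 was at 17.4% and KLF4 at 23.7%. Both backgrounds stood below the shares in the members. Peaks at the members were also more often near another protein-coding gene: 7 of 31 HDAC3 peaks (22.6%, against 12.4% of all gene-end peaks) and 13 of 48 KLF4 peaks (27.1%, against 14.0%). When each peak was given only to the nearest gene end, 25 members had HDAC3 (28.1%, against 17.0% of all) and 41 had KLF4 (46.1%, against 20.6%). Which gene such a shared peak acts on was not tested.

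Both subunits carried the factors. In the large subunit 27 of 46 genes had KLF4 (58.7%), 17 had HDAC3 (37.0%), 14 had both and 16 neither. In the small subunit 16 of 31 had KLF4 (51.6%), 9 had HDAC3 (29.0%), 7 had both and 13 neither. The 12 copies and relatives had KLF4 at 4 (33.3%), HDAC3 at 3 (25%), both at 2 and neither at 7. The difference between the subunits was not tested.

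**Figure D1:**
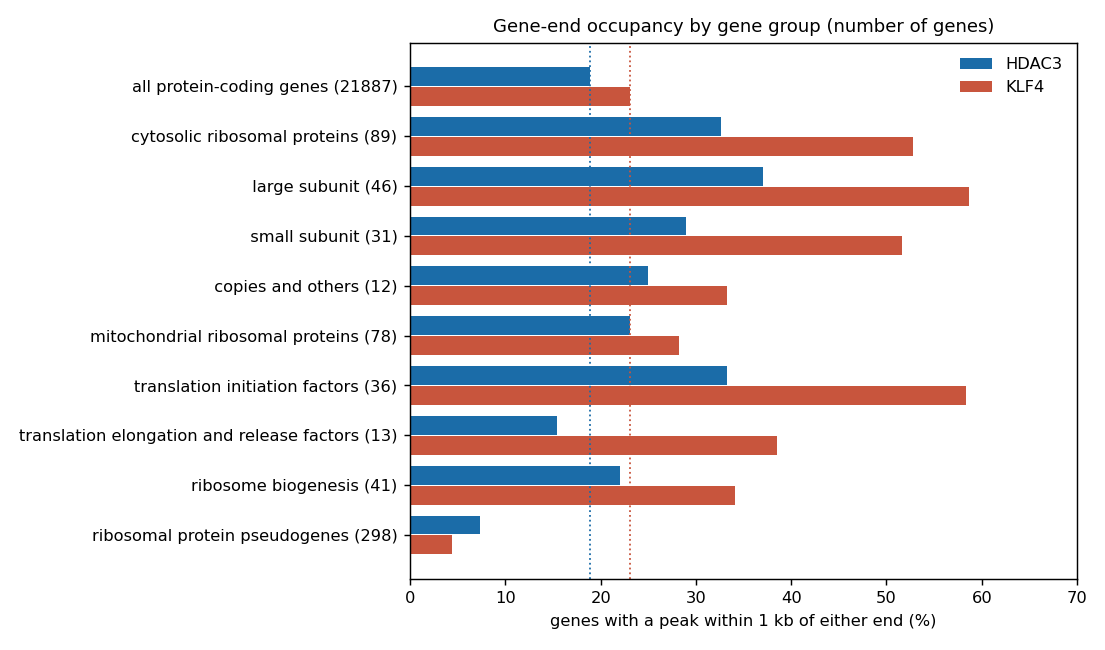
Percentage of genes with an HDAC3 (blue) or KLF4 (red) peak centred within 1 kb of either end, by gene group, with the number of genes in parentheses and dotted lines at the values of all protein-coding genes (18.9% and 23.1%). KLF4 was at 58.7% of large subunit genes and 58.3% of initiation factor genes, against 28.2% of mitochondrial ribosomal protein genes and 4.36% of ribosomal protein pseudogenes.

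The height of a peak is given as its score, the tag number that the authors' caller assigned to it, which ranks peaks within 1 list only. The highest HDAC3 peak of each occupied member had a median score of 39.0 (16 to 119), against 30 over all 4143 genes with an HDAC3 gene-end peak. For KLF4 the median was 85.0 (24 to 430), against 73.0 over 5051 genes. The members were therefore not a set of the very highest peaks. Among all genes occupied by a factor, the highest 10% by score held 4 of the 29 members with HDAC3 (13.8%) and 3 of the 47 with KLF4 (6.38%). Peaks at the calling limit were few: 3 of 31 HDAC3 peaks (9.68%) lay within 4 tags of the threshold of 16, against 22.7% of all HDAC3 gene-end peaks. For KLF4 it was 0 of 48 within 4 tags of the threshold of 19, against 2.22% of all.

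**Figure D2:**
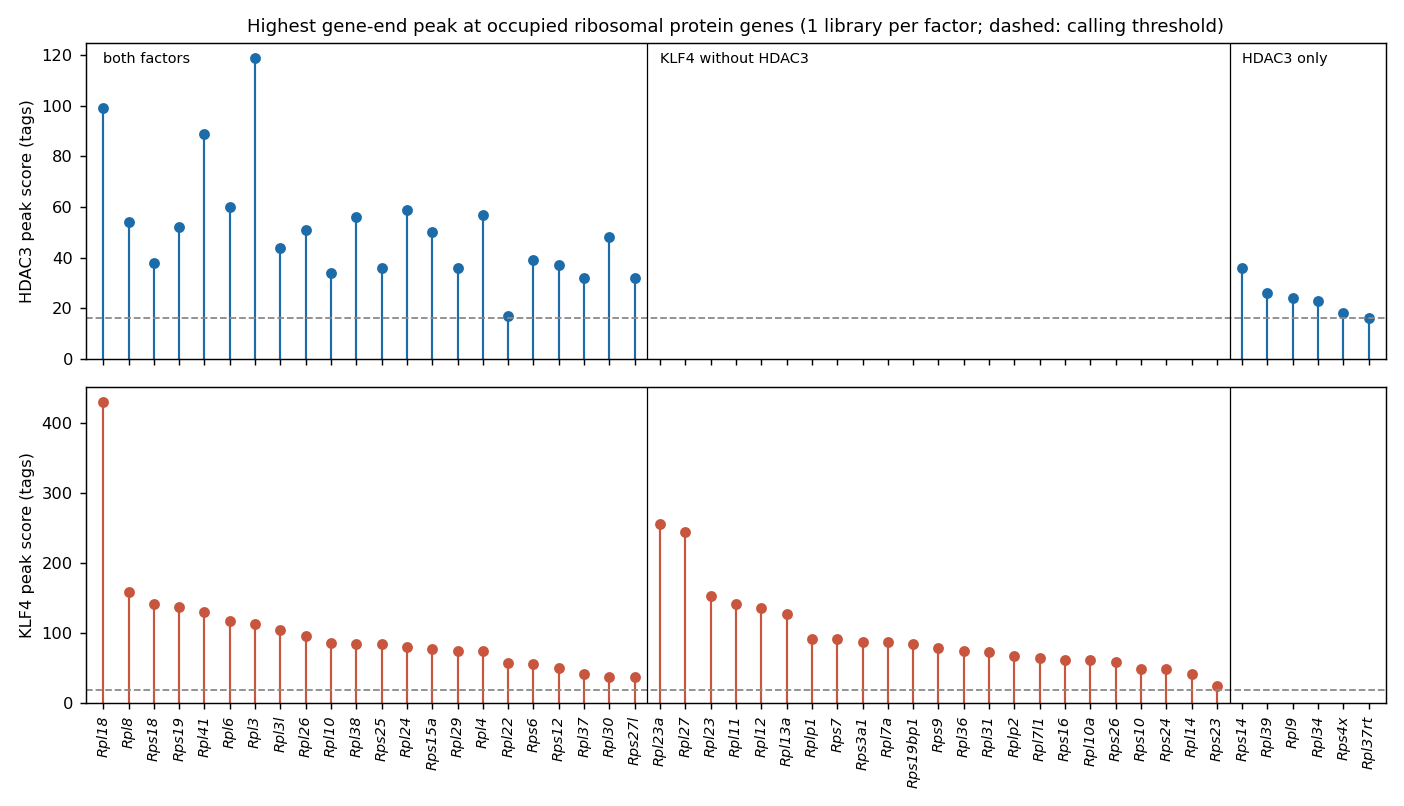
Score (tags) of the highest HDAC3 peak (upper panel) and the highest KLF4 peak (lower panel) within 1 kb of an end of 51 of the 53 occupied members, grouped by the factors present and ordered by KLF4 score, with the calling thresholds of 16 and 19 tags dashed. HDAC3 scores reach 119 where both factors were present and at most 36 where HDAC3 was alone, and KLF4 scores reach 430 and 256 with and without HDAC3.

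The highest HDAC3 peak was at Rpl3, whose product lies next to the catalytic centre of the large subunit. The peak (chr15:80083340-80083524) had a score of 119, 84.7 tags after scaling to the input and 10 input tags, an 8.47-fold enrichment (4.50 to 18.0, exact 95% interval for counting error). It was centred 26 bp outside the gene, and a KLF4 peak of score 113 was centred 39 bp from it. Rpl41, which encodes the smallest ribosomal protein, a peptide at the bridge between the subunits, had HDAC3 at score 89, with 5 input tags (12.7-fold, 5.31 to 39.8). Its KLF4 peak had score 130 and 4 input tags (15.0-fold, 5.74 to 56.0), with the centres 99 and 138 bp inside the gene.

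Rpl18 had the highest KLF4 score of the family and the next highest HDAC3 score after Rpl3. It encodes a large subunit protein that is mutated in some patients with Diamond-Blackfan anaemia. KLF4 reached 430 there (chr7:45714715-45714899), with 10 input tags, 21.4-fold over input (11.5 to 44.9), and HDAC3 reached 99 with 9 input tags, 8.05-fold (4.12 to 17.9). The centres were 24 bp apart. They lay 660 and 684 bp outside the outermost annotated end of the gene, and at positions -3264 and -3288 relative to its start in the promoter table, far outside the promoter window.

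Among the other members with high HDAC3 peaks, Rpl6, a large subunit protein, had 60 for HDAC3 and 118 for KLF4 with 3 input tags under each, and peak centres 5 bp apart. Rpl4, which narrows the peptide exit tunnel, had 57 for HDAC3 at 107 bp inside the gene and 74 for KLF4 at 385 bp before the start, so these peaks did not overlap. Both were also near Zwilch. Rpl8, another protein at the catalytic centre, had 54 for HDAC3 and 158 for KLF4, with 6 and 4 input tags and centres 13 bp apart at the gene end.

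The genes linked to skin colour and skeletal pattern were described whatever their values. Dark skin and dark footpads follow from mutation of Rps19, Rps20 or Rps6 in mice, and pigment or skeletal changes from mutation of Rpl24, Rpl38 or Rpl27a. Of these 6 genes, 4 carried both factors and 2, Rps20 and Rpl27a, carried neither at their ends. Both factors were at 25.8% of the family and 10.3% of all protein-coding genes, and 6 genes are too few to read a difference from either. Rps19 had HDAC3 at 52 and KLF4 at 138 (12.5-fold, 5.22 to 39.0), centred 396 and 108 bp before the start. Rpl24 had 59 and 80, centred 13 and 103 bp inside the gene, with 3 and 2 input tags (13.1-fold, 4.31 to 64.7, and 17.9-fold, 4.78 to 150). Rpl38 had 56 and 85, centred 68 and 84 bp before the start. The Rps6 pair was lower, at 39 and 56, with centres 10 bp apart. For Rps20 the nearest HDAC3 peak was 1191 bp from an end with score 16, and for Rpl27a the nearest KLF4 peak was 1102 bp away with score 50. Both fell just outside the window.

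RPL5, RPL11 and the 5S RNA form the particle that holds back MDM2 and stabilises p53 when ribosome assembly fails, and RPL23 binds MDM2 as well. Rpl11 had a KLF4 peak of score 141 with 2 input tags (32.1-fold, 8.72 to 268), 577 bp outside the end opposite its start. Rpl23 had a KLF4 peak of 153, centred 171 bp before its start (12.2-fold, 5.49 to 33.8). Rpl5 had no gene-end peak: its nearest were an HDAC3 peak of score 32 at 4028 bp and a KLF4 peak of score 63 at 4138 bp. None of these 3 genes had HDAC3 at an end.

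Large KLF4 peaks without HDAC3 were led by Rpl23a, a protein at the mouth of the exit tunnel, with score 256 and 9 input tags (13.5-fold, 6.99 to 29.8). The peak was 473 bp outside the gene and within 1 kb of an end of Tlcd1 as well. Rpl27 followed with 244. Its input of 20 tags was the highest under any peak of the family, and its enrichment was 5.72-fold (3.63 to 9.53). Rpl12, at the base of the stalk that recruits translation factors, had 136, centred 780 bp before the start and also near Lrsam1. Rpl13a, a large subunit protein, had a KLF4 peak of score 127 with 12 input tags (4.94-fold, 2.74 to 9.81). This peak was 974 bp beyond the end opposite the start of Rpl13a and nearer to an end of another gene. Rplp1 and Rps7 had 91 each, Rps3a1 had 88 and Rpl7a 87, the last also near Med22. RPLP1 is part of the acidic stalk, and RPS7 and RPS3A belong to the small subunit. Of the 3 acidic stalk genes, Rplp1 and Rplp2 (67) had KLF4, none had HDAC3, and Rplp0 had a KLF4 peak of score 99 outside the window, 1093 bp away.

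Rps18 combined a KLF4 peak of score 142 over 1 input tag with an HDAC3 peak of 38. Its product sits in the head of the small subunit. The KLF4 fold of 64.2 was the highest of the family and also very imprecise (11.3 to 2554). These peaks lay beyond the end opposite the start, near B3galt4, and their centres were 179 bp apart, the widest of the overlapping pairs. Rpl10, whose product is among the last added to the large subunit, had the closest pair, with centres 1 bp apart 293 and 292 bp before the start. HDAC3 scored 34 there and KLF4 86. The input had 0 tags under the HDAC3 peak, written as 0.5 in the list. With 3 input tags taken as the limit of detection, the HDAC3 enrichment was 7.17-fold, a value that leaves out counting error. The exact interval for counting error began lower, at 5.59-fold, and had no upper end. A further HDAC3 peak of score 31 was centred 568 bp inside Rpl10.

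HDAC3 was without KLF4 at 6 genes, a share below that of all protein-coding genes (6.74% against 8.65%). They were Rps14 (36), Rpl39 (26), Rpl9 (24), Rpl34 (23), Rps4x (18) and Rpl37rt (16). Rps14 encodes a small subunit protein known from the loss of its gene in a myelodysplastic syndrome, and Rpl39 a small protein that lines the exit tunnel. Their median of 23.5 compares with 50 (17 to 119) for HDAC3 at the 23 members with both factors. KLF4 showed less of a gap, with a median of 85.0 (37 to 430) at members with both and 81.5 (24 to 256) at members with KLF4 alone. Neither gap was tested or set beside all protein-coding genes, so they cannot be read as traits of the family. The HDAC3 gap rests on 6 genes. The HDAC3 peak of Rpl37rt was exactly at the threshold of 16, and that of Rpl9 was also near Lias.

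Input under the members' peaks was slightly above the genome's gene ends. The median was 4 input tags under HDAC3 peaks, against 3 over all gene-end peaks, and 5 under KLF4 peaks, against 4. The median enrichment was 6.85-fold for HDAC3, against 6.36-fold over all gene-end peaks, and 6.58-fold for KLF4, against 7.46-fold. So the members exceeded the gene-end median in score for both factors, and in fold over input for HDAC3 but not for KLF4. With peaks at least 8-fold over input, HDAC3 remained at 11 members (12.4%, against 6.76% of all protein-coding genes) and KLF4 at 17 (19.1%, against 11.0%). The part of the input in the occupancy of the family was not tested.

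**Figure D3:**
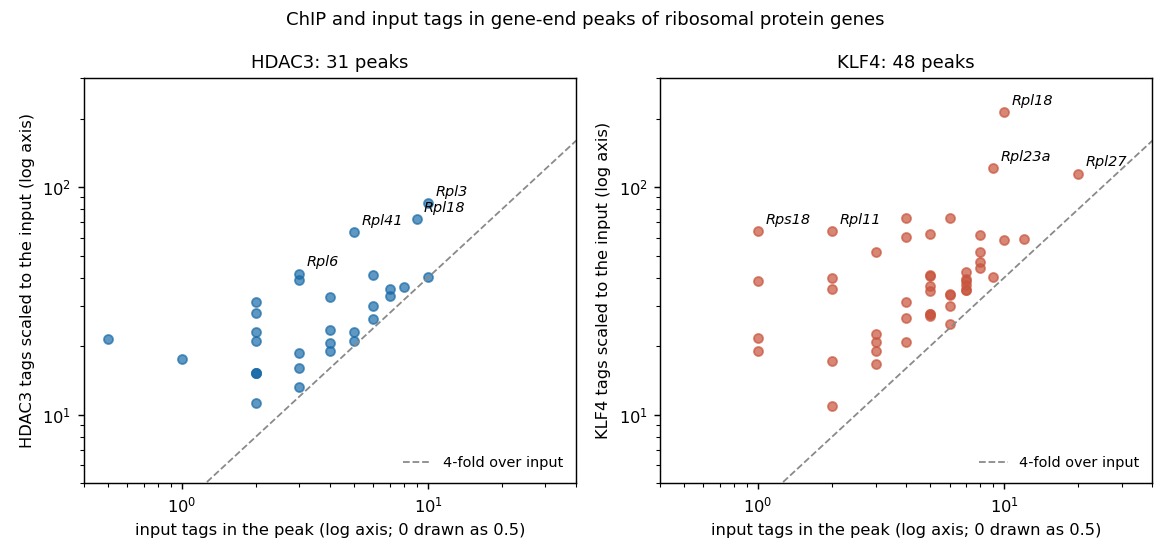
Input tags (horizontal, log axis) and precipitated tags scaled to the input (vertical, log axis) for the 31 HDAC3 peaks (left) and 48 KLF4 peaks (right) at ends of ribosomal protein genes, with the line of 4-fold enrichment that a peak had to reach. Rpl3 and Rpl18 had 10 and 9 input tags under HDAC3, and Rpl27 had 20 under KLF4.

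Overlapping peaks have close centres by definition, so the distances within pairs can be read only beside those of all genes. The 17 overlapping pairs had a median distance of 27 bp between centres, against 30 bp for the 1639 pairs at all protein-coding gene ends, and 14 of 17 (82.4%) were within 50 bp, against 68.8%. The other 6 members with both factors, Rpl4, Rpl22, Rps15a, Rps19, Rpl3l and Rps27l, had them at separate positions. The peaks of Rpl3l, the muscle copy of Rpl3, lay 557 and 368 bp beyond its end and near Msrb1, so they missed overlap narrowly. Within the 17 pairs HDAC3 and KLF4 scores correlated with a Spearman coefficient of 0.57, against 0.74 over the 1639 pairs. This is a description across sites that share a region and an input library.

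Strand and start position came from the RefSeq promoter table, which held 69 of the 89 members. Among the 20 others were Rpl3, Rpl7, Rpl8, Rpl17, Rpl21, Rpl23a, Rpl29, Rpl30, Rpl32, Rpl36, Rplp1, Rps14, Rps20, Rps27a and Rps29. HDAC3 peaks lay within 1 kb of an annotated start in 18 of the 69 (26.1%), against 15.9% of all 17492 genes with an entry. KLF4 was at 31 (44.9%), against 21.3%. Gene-end peaks with known strand were also divided by the nearer of the outermost gene ends. The end on the side of the start was nearer for 19 of 24 HDAC3 peaks (79.2%, against 72.8% of all). For KLF4 it was 30 of 39 (76.9%, against 78.0%). This end can lie far from the start in the promoter table, as for both Rpl18 peaks, which count here.

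The peaks at the starts of ribosomal protein genes crowded around the start itself. For HDAC3, 12 of 19 start peaks (63.2%) were centred within 150 bp of the start, against 25.3% of start peaks of all genes, and the median distance was 104 bp, against 332 bp. For KLF4, 16 of 32 (50%) were within 150 bp, against 28.7%, and the median distance was 159 bp, against 306 bp. HDAC3 centres were more often downstream than upstream of the start, and KLF4 centres more often upstream. HDAC3 was upstream in 8 of 19 (42.1%, against 58.7% of all), and KLF4 in 23 of 32 (71.9%, against 63.7%). No test of this contrast was made. At the 12 members with an overlapping pair within 1 kb of an annotated start, both centres lay on the same side of it. The contrast therefore comes from start peaks outside such pairs. The order within a gene varied. At Rps15a HDAC3 was centred 47 bp inside the gene and KLF4 195 bp upstream, and Rpl4 had the same order, while at Rps19, Rpl24, Rpl41 and Rpl26 the HDAC3 centre lay upstream of the nearest KLF4 centre.

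**Figure D4:**
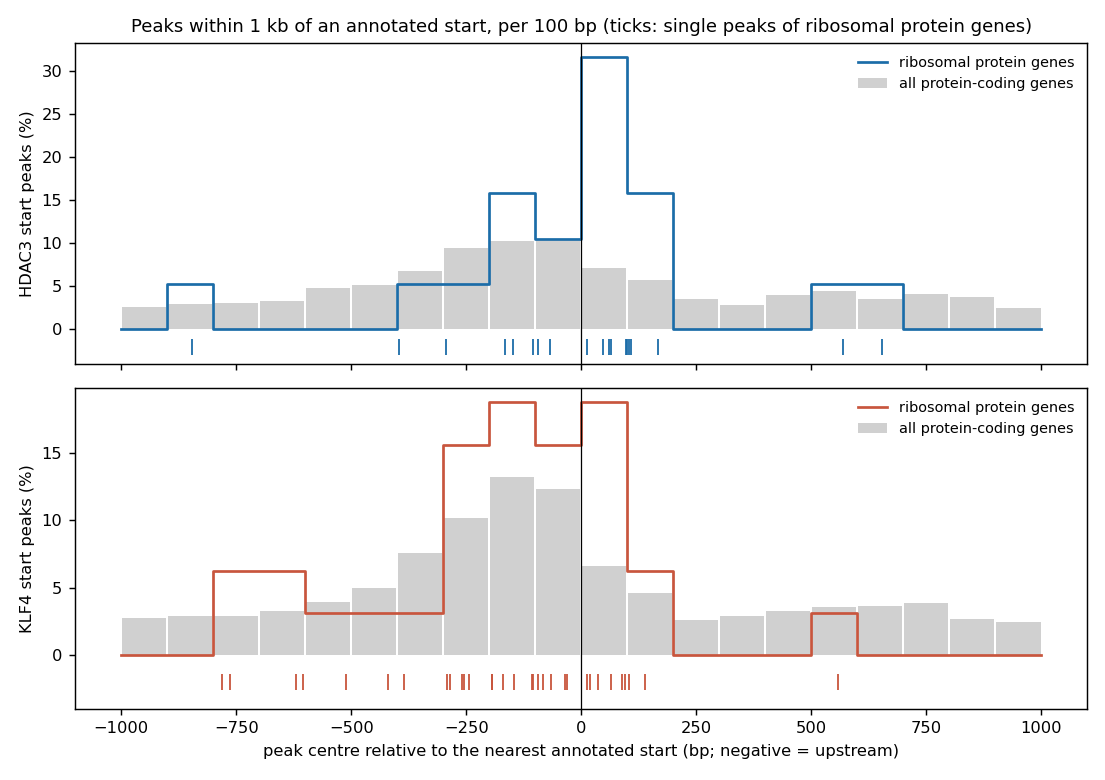
Percentage of HDAC3 (upper) and KLF4 (lower) start peaks per 100 bp from 1 kb upstream to 1 kb downstream of the nearest annotated start, for ribosomal protein genes (line, with each peak as a tick) and all protein-coding genes (grey). HDAC3 ticks gather within 150 bp of the start (12 of 19), and 23 of 32 KLF4 ticks lie upstream of it.

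The outermost gene ends and the starts in the promoter table were not always the same position. Rps2, which encodes a small subunit protein near the mRNA entry, counted as unoccupied by its gene ends but had HDAC3 at score 73 and KLF4 at score 114 centred 97 and 89 bp downstream of its RefSeq start. Rpl22, counted with both factors at its far end (17 and 57), had a higher KLF4 peak of 102 centred 36 bp upstream of its start. Rps27l, the p53-inducible copy of Rps27, had 30 and 49 at positions -149 and -245 from a start besides the gene-end peaks of 32 and 37. The gene-end counts therefore leave out some start peaks of the family.

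For the 36 members with neither factor at their ends, the nearest HDAC3 peak was at a median of 12922 bp (1191 to 101660) and within 5 kb in 13 of them (36.1%), against 31.7% of all 14943 protein-coding genes with neither. The nearest KLF4 peak was at 8002 bp (1026 to 657594) and within 5 kb in 16 (44.4%), against 29.1%. Just outside the window lay KLF4 peaks of Rpl32l (1026 bp, score 114), Rplp0 and Rpl27a. Just inside lay KLF4 at Rpl13a (974 bp), HDAC3 at Rpl34 (947 bp) and KLF4 at Rpl22 (921 bp). Rpl13 had higher peaks further off, HDAC3 of score 77 at 1849 bp and KLF4 of score 337 at 1856 bp. Rpl10l, the testis copy of Rpl10, was the most distant from either factor, with its nearest KLF4 peak 657594 bp away and its nearest HDAC3 peak 101660 bp away. Among the standard proteins it was Rpl36a, whose nearest peaks were 77278 bp (HDAC3, score 16) and 195256 bp (KLF4, score 38) away.

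Promoter letters were then compared over the 300 bases around each start, 250 before and 50 after, in the 69 members and in all 17492 promoters of the same length. The ETS letters (CCGGAAG) were in 25 member promoters (36.2%), against 11.9% of all. A pyrimidine run, here a C followed by at least 6 further C or T and beginning within 30 bases of the start, was in 45 (65.2%), against 28.4%. The letters AAGATGG, bound by YY1, were in 10 (14.5%), against 6.36%, and the GC box GGGCGG in 40 (58.0%), against 46.3%. The KLF letters GGGNGTGG were in 12 (17.4%), against 19.2%, so the family was not richer in them than other genes. The TATA letters TATAAA were in 8 (11.6%, against 13.3%), the E-box CACGTG in 5 (7.25%, against 7.91%), the NRF1 motif in 5 (7.25%, against 6.60%) and the AP-1 letters TGANTCA in 1 (1.45%, against 7.05%). All were searched on both strands except the run, which was read on the strand of the gene, and a stretch could match more than 1 of them. Median GC content was 57.0%, against 56.3%, and the median number of CpG was 21, against 13.

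Within the family, the letters were set beside occupancy as a description of few promoters. The ETS letters were in 16 of 38 promoters of members with KLF4 (42.1%) and 9 of 31 without (29.0%), and in 9 of the 18 with both factors. The YY1 letters were in 8 of 38 (21.1%) and 2 of 31 (6.45%). The TATA letters went the other way, in 1 of 38 (2.63%) and 7 of 31 (22.6%). The KLF letters were in 6 of 38 (15.8%) and 6 of 31 (19.4%), and the pyrimidine run in 24 (63.2%) and 21 (67.7%). The groups follow peaks at either gene end, so they do not separate promoters bound by KLF4 from unbound ones. Members such as Rpl11 count as with KLF4 through a peak beyond the far end. Rps2, whose promoter held TATA and ETS letters, counts as without despite a KLF4 start peak of score 114. The same split over all promoters was not made, and these differences were not tested. A match is not a binding site, and the windows do not cover peaks that lay further from the start, such as the pair of Rpl18.

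**Figure D5:**
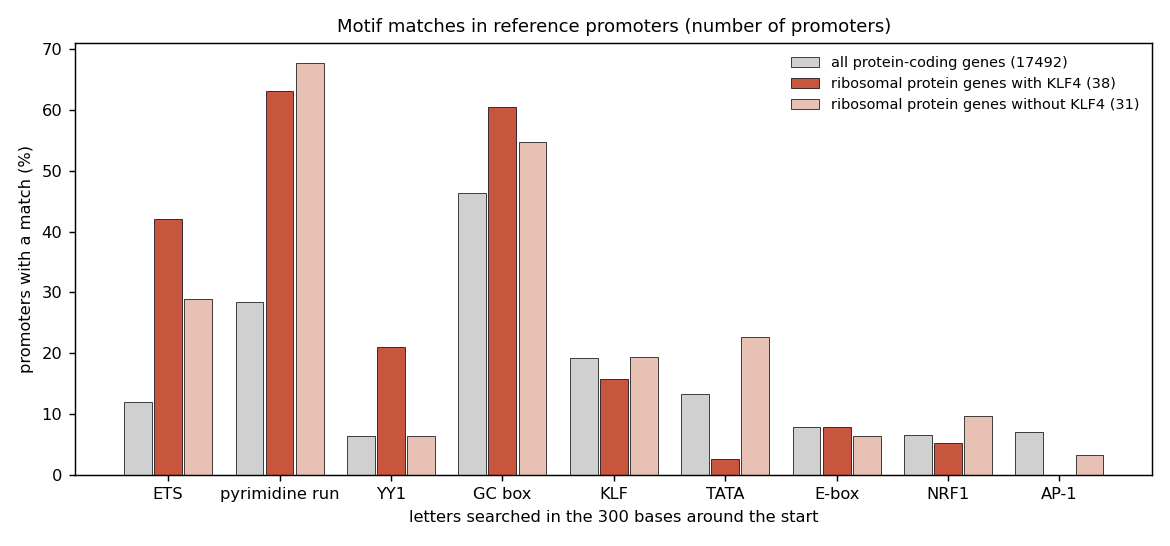
Percentage of reference promoters (300 bases) with at least 1 match to each set of letters, for all protein-coding genes (grey, 17492), members with KLF4 at an end (dark red, 38) and members without (light red, 31). ETS letters stand at 42.1% and 29.0% in the members against 11.9% in all, and KLF letters at 15.8% and 19.4% against 19.2%.

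By place in the ribosome, the 10 genes listed for the exit tunnel had HDAC3 at 5 (50%) and KLF4 at 6 (60%). The shares were 18.9% and 23.1% over all protein-coding genes and 32.6% and 52.8% over the family. The listed genes were led by Rpl23a, Rpl26 (HDAC3 51, KLF4 96) and Rpl29 (36 and 75) besides Rpl4. Rpl29 counts in both shares, and whether its product belongs to the tunnel was not checked. The 12 genes found for decoding and the mRNA path of the small subunit had HDAC3 at 2 (16.7%), Rps14 among them, and KLF4 at 5 (41.7%), with Rps3a1 and Rps9 (79) among the highest. Genes mutated in Diamond-Blackfan anaemia, a failure of red cell production, had KLF4 at 10 of 18 (55.6%), led by Rpl18, Rpl27 and Rpl11, and HDAC3 at 3 of 18 (16.7%), Rpl18, Rps19 and Rpl26. Their KLF4 share was close to that of the whole family, and their HDAC3 share was close to the 18.9% of all protein-coding genes. These 18 genes are too few to read a difference from either. Among the 9 copies and relatives found on the list of paralogs, Rpl3l (44 and 105) and Rps27l (32 and 37) had both factors, and Rps19bp1 (84) and Rpl7l1 (65) had KLF4. Of ribosomal protein genes that their names leave outside the rule, Rack1 had KLF4 (107) without HDAC3 and Fau had neither.

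The rest of the translation machinery did not share 1 level. Initiation factor genes had KLF4 at 21 of 36 (58.3%) and HDAC3 at 12 (33.3%), both near the shares of the ribosomal proteins. The helicase gene Eif4a1 (HDAC3 81, KLF4 269) led both, followed for HDAC3 by Eif5a (73) and Eif1 (56) and for KLF4 by Eif3l (249) and Eif6 (230). Eif5a counts in both shares, and whether its product acts in initiation was not checked. Elongation and release factors had KLF4 at 5 of 13 (38.5%) and HDAC3 at 2 (15.4%), with Eef1a1, the carrier of aminoacyl-tRNA, at 34 and 186, Eef1g at 47 and 108, and Eef1b2 at 156 for KLF4. Ribosome biogenesis genes had KLF4 at 14 of 41 (34.1%) and HDAC3 at 9 (22.0%). The highest there were Nhp2 (169), Sbds (133) and Tcof1 (129) for KLF4 and Utp18 (57), Nop14 (55) and Bysl (42) for HDAC3.

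Mitochondrial ribosomal protein genes, whose products build the separate ribosome of the mitochondrion, had KLF4 at 22 of 78 (28.2%) and HDAC3 at 18 (23.1%), with both at 11. These shares lay closer to those of all genes than to the cytosolic family. Their highest peaks were at Mrps18b (HDAC3 84, KLF4 315), Mrps12 (79 and 168), Mrpl1 (66 and 176) and Mrpl12 (KLF4 203). Of the genes that control ribosomal protein synthesis through mTOR and related routes, 7 of 18 had KLF4 (38.9%, against 23.1% of all protein-coding genes). HDAC3 was at 5 of them (27.8%, against 18.9%). Rptor, which encodes the subunit that presents substrates to mTOR, had 59 and 203, Tsc1 35 and 91, Mtor 32 and 65, and Rheb KLF4 at 97. The differences between these lists were not tested.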

How the data were processed

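The labels describe 3 libraries from dorsal epidermis of wild-type E18.5 embryos, 1 per group: HDAC3 precipitation, KLF4 precipitation and input. The submitters' processing notes name bcl2fastq, STAR, HOMER and GRCm38.p5, with tool versions not given in the sources used here, nor is the treatment of reads that match several copies of a gene. Per the file headers, peaks of 185 bp were called in HOMER's factor style for each precipitation separately, with fragment lengths of 160 bp (HDAC3) and 168 bp (KLF4). Per the file headers, the limits were 4-fold over both the input and the local 10 kb, a Poisson p-value of 1e-04 and a false discovery rate of 0.001.

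The deposited tag signal is normalised by the authors to 10000000 tags, with further columns for tags scaled to the input and input tags, where 0 is written as 0.5. The score is the authors' tag number by which peaks of a list can be ranked. The fold over input is the ratio given by the authors' caller. The deposited p-value and the focus ratio, a fraction in the deposited lists, were not analysed.

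Peaks on chromosomes were placed on a RefSeq gene table of GRCm38.p6, whose primary coordinates match the files' build; 16 HDAC3 and 15 KLF4 peaks on unplaced contigs were left out. A peak belonged to a gene when its centre was within 1 kb of either end, and a pair overlapped with centres at most 184 bp apart. Strand, starts and sequence came from the RefSeq promoter table. Python 3.11.15, pandas 2.3.3, numpy 2.4.6, scipy 1.17.1 and matplotlib 3.10.9 were used, and the assignment was tested on simulated data. Intervals on folds are exact at 95% and cover counting error only, since PCR copies are not independent molecules. Alternatives were other windows, stricter peaks, annotated starts alone, nearest genes, standard proteins alone and narrower overlap.

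Members and lists were chosen with earlier results of these data known. Members named are the 10 highest for each factor, all with HDAC3 alone, the 10 highest with KLF4 alone and the genes of skin phenotype and of the 5S particle; from other lists, the 3 highest for each factor. Other members named to describe positions or neighbours were chosen after their values were seen. Some members that these rules name are not reported here by name, and they remain in all counts.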

Additional observations from a re-analysis of the deposited data

How the results depend on the processing

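Of 58 alternative values, 46 stayed within 1.5 times the main count, or within the interval of a median or share, and 12 did not. In each alternative the share of members exceeded that of all protein-coding genes for HDAC3, KLF4, both factors and overlapping pairs. With a window of 5 kb, HDAC3 was at 49 members (55.1%, against 46.2% of all), both factors at 41 and an overlapping pair at 30; of the settings tried, this gave the lowest ratio of the HDAC3 share to its background. With a window of 0.5 kb, both factors were at 15. With peaks at least 8-fold over input, HDAC3 was at 11 members, KLF4 at 17, both at 7 and a pair at 7, and the median highest KLF4 score rose to 118. With annotated starts alone, 69 members and 17492 genes could be counted, and HDAC3 was at 18, KLF4 at 31 and both at 15. This setting changes both the genes counted and the position: over the same 69 members, gene ends gave 23, 38 and 18. Leaving out the 12 copies and relatives gave 26, 43, 21 and 17 of 77. No paired analysis was possible because each antibody had 1 library.

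With 1 library per antibody, no value here has a replicate check. Input numbers of 0 to 20 tags per peak leave the fold over input of a single peak imprecise. The scores of both lists come from libraries of different depth and threshold and were not compared with each other. Gene ends are the outermost annotated positions, and 20 members had no entry in the promoter table. How reads shared by near-identical copies were counted is not stated. Occupancy was not set beside transcript levels, which were not analysed here.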

Other observations

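Pseudogenes of ribosomal proteins, mostly processed copies without a promoter of their own, had few peaks. Of 298 named as such, 22 (7.38%) had HDAC3 and 13 (4.36%) KLF4 within 1 kb of an end, below the 18.9% and 23.1% of protein-coding genes. The 5 with both, named after their values were seen, were Rps23-ps1, Rplp0-ps1, Rpl9-ps3, Rpl7-ps8 and Rpl35a-ps3. Rplp0-ps1 lies inside or near Flg, the filaggrin gene, and Rpl35a-ps3 inside or near Rab44.

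Many ribosomal protein genes carry small nucleolar RNA genes in their introns, which guide the chemical modification of ribosomal RNA. A total of 59 such genes lay inside 30 of the 89 members. They were in 7 of 23 members with both factors, 9 of 24 with KLF4 alone, 1 of 6 with HDAC3 alone and 13 of 36 with neither. Differences between these shares were not tested.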
